A study of Drosophila melanogaster with 2 samples.

Results

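Downstream promoter peaks of the homeodomain protein CG11617 are binding peaks whose summit lies at or past the nearest transcription start of a gene and not in front of that start. They were taken from the peaks on the fly genome build dm6 that the authors kept by irreproducible discovery rate (IDR), which scores the agreement of peak ranks between replicates. A summit counted as downstream when all protein-coding transcription start sites (TSSs) within 500 bp of it were on a single strand and it lay at or past the nearest of them in the direction of transcription. Of the 5777 peaks, 824 (14.3%) met this rule. They lay at 757 TSSs of 734 genes, which was 5.26% of the 13945 protein-coding genes. For comparison, 1591 peaks (27.5%) lay upstream of such one-strand TSSs and 1426 (24.7%) lay at divergent promoters, where TSSs of both strands fell within the window.

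The data came from 1 group of adult Drosophila melanogaster, named CG11617-GFP in the labels. These flies carry a transgene from which CG11617 is made with eGFP fused to its C terminus, and whole animals of both sexes and of unknown age were pooled. Chromatin was sheared by sonication and immunoprecipitated with an antibody against GFP, and 2 biological replicates of the same line, numbered 2 and 3, were sequenced. All values therefore describe 1 line and a mixture of all adult cell types, and no comparison between conditions can be made. The strength of a peak is given by the authors' signal, a score whose scale differs between lists. Read depth is unknown, because the lists carry no counts. A control experiment is named in the labels, and no control sample was analysed here.

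In animal genes transcription begins at the TSS, and the first exon usually opens with a 5' untranslated region (5' UTR), which is part of the messenger RNA but precedes the start codon. First introns often hold enhancers and other regulatory DNA. Many Drosophila promoters of broadly active genes carry the DNA replication-related element TATCGATA, bound by Dref, or core promoter motif 1, with the core GGTCACACT, bound by M1BP. CG11617 belongs to the TALE class of homeodomain proteins. Homeodomains of many classes bind DNA with a TAAT core, and the Iroquois proteins, which are also of the TALE class, bind the palindrome ACANNTGT.

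The sequences that follow carry the results on DNA content and are shown on the strand of the gene, 5' to 3', from build dm6, with the motif in capitals. The first set shows TATCGATA in the 150 bp in front of the start sites of downstream peaks, where it was found more often than at start sites with an upstream peak or at unbound ones. In Cat, which encodes catalase, the motif was centred at −36 bp from the TSS (chr3L:18822554-18822583, plus strand). In dbo, which encodes a Kelch protein, it was at −25 bp (chr3L:15826849-15826878, plus strand). In the ribosomal protein gene RpL27 it was at −36 bp (chr3R:25685073-25685102, minus strand), and in the SR splicing protein gene B52 at −62 bp (chr3R:13661235-13661264, plus strand).
Cat: tataatcgaaaTATCGATAtcttcggccca
dbo: attctcaaaaaTATCGATAcactgatattg
RpL27: ttgccactaagTATCGATAaaaagacgacg
B52: cccgcccaaaaTATCGATAggcgaaaaagt
The second set shows GGTCACACT in the same stretch. RpL27 held it too, at −113 bp and in the opposite orientation (chr3R:25685150-25685178, minus strand). In Mer, the fly counterpart of the tumour suppressor Merlin, it was at −7 bp (chrX:19693493-19693521, minus strand), and in Rnp4F, a gene for an RNA-binding protein, at −32 bp (chrX:5322714-5322742, minus strand).
RpL27: tacttgtgccAGTGTGACCagatagtagg
Mer: tctaacggctGGTCACACTgtctatgttt
Rnp4F: attacgcactGGTCACACTgttataacga

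The third set shows sequences within 50 bp of the summit itself, from motifs that were more frequent there than at other promoter peaks together and at unbound start sites. The dinucleotide repeat CACACACA lay 283 bp past the TSS in the first intron of Cat (chr3L:18822873-18822902, plus strand), read as TGTGTGTG on the gene's strand. It lay 78 bp past the TSS in the 5' UTR of the ubiquitin ligase gene Nedd4 (chr3L:17533570-17533599, plus strand) and 413 bp past it in the first intron of qtc (chr2L:5061214-5061243, plus strand). The E-box CACGTG is shown from the 4 strongest peaks that held it. It lay at 124 bp in CG32772 (chrX:4909212-4909241, plus strand), at −34 bp in the elongation factor gene eEF2 (chr2L:21682184-21682213, minus strand), at 126 bp in jvl (chr3R:14749587-14749616, plus strand) and at 451 bp in the first intron of CG10365 (chr3R:23723768-23723797, plus strand).
Cat: gcgcaactgcaTGTGTGTGcgtgtgtgtgc
Nedd4: acccacgaccgCACACACActcgctgcggg
qtc: ttcggtaataaTGTGTGTGcttaaatcgag
CG32772: tgttttttttttCACGTGtaactacgccaa
eEF2: tgatgaatctgtCACGTGaactactatcga
jvl: ttcagcctagcgCACGTGtctcaatatttt
CG10365: tttcagtgtcaaCACGTGcatatactatct
The fourth set holds motifs linked to homeodomains. ACANNTGT is shown from the 4 strongest downstream peaks that held it, at 285 bp in P5cr-2 (chr3R:17535205-17535234, plus strand), at 38 bp in Nedd4 (chr3L:17533530-17533559, plus strand), at 318 bp in Hers (chrX:19887657-19887686, plus strand) and at 319 bp in csw, which encodes the fly SHP2 phosphatase (chrX:2094539-2094568, plus strand). TAATTA is shown from 2 of the 25 strongest peaks, at 426 bp in hng3 (chr3L:738909-738938, minus strand) and at 384 bp in dbo (chr3L:15827258-15827287, plus strand), chosen after the values were seen.
P5cr-2: agttgcggatgACAGTTGTtctaaatgata
Nedd4: tgcggctgccgACAAGTGTtgctgttgctg
Hers: ttcacatatatACAAGTGTacgcgcgcgtt
csw: ctgggctatttACATATGTataagtagata
hng3: tccaattggaacTAATTAaaattatgataa
dbo: agatttcagtttTAATTAaattaggttgaa

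Downstream summits were mostly close to the start site. The median distance from TSS to summit was 120.5 bp, with quartiles of 52 and 236 bp. Within 50 bp lay 197 summits (23.9%), within 100 bp 367 (44.5%) and within 250 bp 636 (77.2%). Signal did not follow distance: across the 824 peaks Spearman's rho between them was 0.03, a correlation over peaks and not over samples. At the inner edge of the rule stood CG7920, Pdxk and CG7430, with summits exactly at the TSS and signals of 280, 267 and 180. Just outside it stood RpL27A, Ac76E and EloC, at −1 bp with signals of 635, 234 and 229. At the outer edge, mam at 500 bp (166), Mtp at 499 bp (339) and GstO3 at 498 bp (198) were inside. Marf at 501 bp (862), Pcyt1 at 501 bp (219) and cic at 503 bp (268) were outside.

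Most downstream summits lay in the 5' UTR part of the first exon. This class held 565 peaks (68.6%, 95% Wilson interval 65.3 to 71.6%, which covers counting error only). The first intron held 214 (26.0%, 23.1 to 29.1%), the coding part of the first exon 33 (4.0%, 2.87 to 5.57%), and positions farther along the transcript 12 (1.46%, 0.835 to 2.53%). Of those 12, 5 were in a later coding exon, 4 in a later intron, 2 in a later 5' UTR exon and 1 outside the transcript. Before the start codon lay 715 summits (86.8%), and 38 (4.61%) fell in coding exons. Among the intron summits, 147 preceded the start codon and 67 followed it. Where a TSS had several transcripts, the class was taken from 1 of them: 436 peaks had more than 1, and for 57 the class differed between them.

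The mix of positions changed with distance. The 5' UTR share was 97.9% of 188 summits at 0 to 49 bp, 71.0% of 183 at 100 to 199 bp and 12.3% of 65 at 400 to 500 bp. The first intron share was 1.06%, 20.2% and 78.5% in the same bins. Gene models also change with distance, so the annotation at the same 757 TSSs was read in the same bins. At 400 to 500 bp, 78.5% of summits were in the first intron, against 52.6% of annotated positions, and at 300 to 399 bp 66.2% of summits against 47.7% of positions. At 200 to 299 bp the shares were closer, with 46.0% of summits against 41.7% of positions. First-exon coding sequence held 3.08% of summits and 8.84% of positions at 400 to 500 bp, and 0 of 74 summits and 8.86% of positions at 300 to 399 bp. The start sites of downstream peaks had more annotated 5' UTR in their first 500 bp (50.7%) than those of upstream peaks (43.8%) or all one-strand TSSs (34.5%), and less first-exon coding sequence (8.10%, against 16.9% and 24.9%). Their median first exon was 271 bp long, against 289 bp at upstream peaks and 286 bp at unbound start sites.

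**Figure D1:**
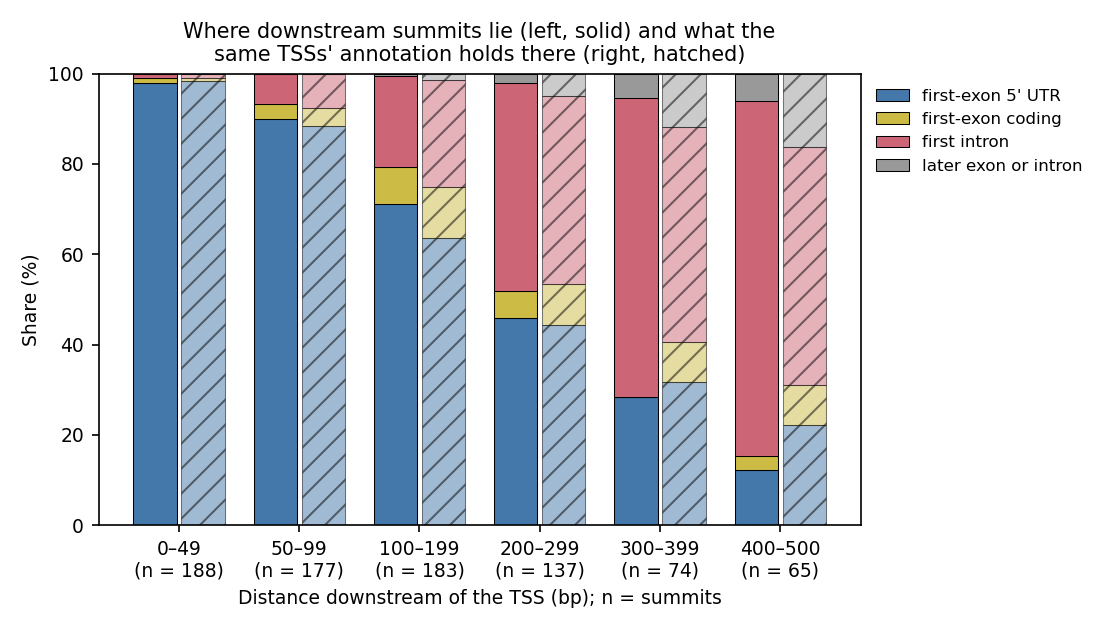
Share of downstream summits in each annotated position (solid, left bar of a pair) and share of annotated positions at the same 757 TSSs (hatched, right bar) by distance from the TSS in bp. In the bin at 400 to 500 bp the first intron holds 78.5% of summits and 52.6% of annotated positions.

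Signal was similar among the main positions. Its median was 228 for the 565 peaks in the 5' UTR, 240 for the 214 in the first intron, 204 for the 33 in first-exon coding sequence and 214 for the 12 farther along. The median distances were 78, 281.5, 150 and 376 bp in the same order. The strongest peaks in coding sequence were those of Karybeta3, an importin gene, with a signal of 466 in the pooled list, 163 in replicate 2 and 290 in replicate 3, of poe (406, 125 and 276) and of Got2, a mitochondrial transaminase gene (354, 129 and 218). The strongest at later positions were those of Eno (546, 134 and 184), Archease (312, 87.3 and 220) and Sxl, the sex determination switch gene (300, 99.0 and 207). None of these 6 reached the 25 strongest downstream peaks, which had signals of 798 or more. At Eno each replicate also had a stronger overlapping entry, with its summit at 536 bp in replicate 2 and 538 bp in replicate 3. The Karybeta3 peak shared its interval with a stronger downstream peak in the 5' UTR, at 197 bp with a signal of 712. The strongest overlapping entries at Karybeta3 had summits near that peak, at 189 bp in replicate 2 and 199 bp in replicate 3.

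Downstream peaks were weaker than the other promoter peaks. Their pooled signal ran from 163 to 1664 with a median of 228 (quartiles 192 and 306), against a median of 273 (201 and 462) for upstream peaks and 307 for divergent promoters. In replicate 2 the medians were 72.8 for downstream peaks, 89.3 for upstream peaks and 95.8 for divergent promoters. In replicate 3 they were 161, 189 and 214. The log2 ratio of the downstream to the upstream median was −0.26 in the pooled list, −0.30 in replicate 2 and −0.23 in replicate 3, so both replicates gave the same order. The tenth of all peaks with the highest signal held 33 downstream peaks (4.0%), against 216 upstream peaks (13.6%) and 175 peaks at divergent promoters (12.3%). Signals below the median of all peaks were found for 520 of them (63.1%), against 46.8% and 39.9%. No test was made, since peaks are not replicates and there were 2 samples.

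**Figure D2:**
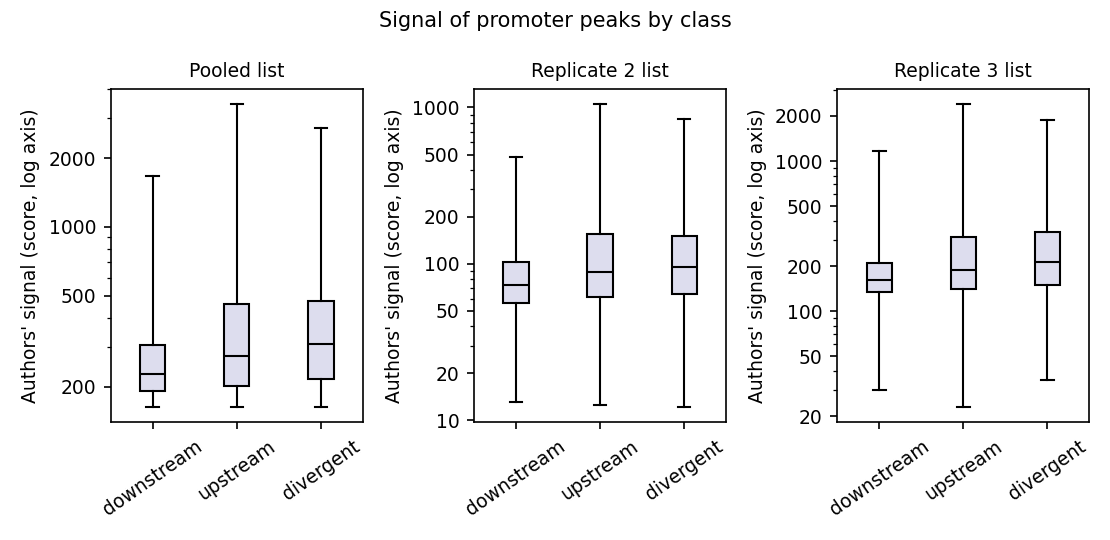
Authors' signal (log axis) of downstream, upstream and divergent promoter peaks in the pooled, replicate 2 and replicate 3 lists, with boxes for the quartiles, a line for the median and whiskers to the lowest and highest peak. The downstream median is the lowest of the 3 classes in each list, at 228, 72.8 and 161.

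The strongest downstream peak was in the 5' UTR of CG9399, 56 bp past the TSS (chr3R:9573559-9574537). Its signal was 1664 in the pooled list, 479 in replicate 2 and 1165 in replicate 3, and it ranked 66 among all 5777 peaks. The next was at ph-p, which encodes the Polycomb repressor subunit Polyhomeotic. It lay 460 bp past the TSS in a long first exon (chrX:2136647-2138318), with signals of 1557, 440 and 1118. The glutathione S-transferase gene GstE13 had a peak at 60 bp (chr2R:9121942-9122442) with signals of 1511, 471 and 1035. The strongest in a first intron was at Eip63F-1, an ecdysone-induced gene for a calcium-binding protein, at 476 bp (chr3L:3928399-3928981) with signals of 1357, 448 and 909. CG32772 followed with a 5' UTR peak at 82 bp (1257, 449 and 823).

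Genes with varied roles made up the rest of the 25 strongest. Cat had a first intron peak at 277 bp with signals of 1141 in the pooled list, 347 in replicate 2 and 765 in replicate 3. sqh, which encodes the regulatory light chain of non-muscle myosin, had one at 130 bp (1134, 385 and 738). Ada2b, a subunit gene of the SAGA histone acetyltransferase, had one at 459 bp (1107, 362 and 730). The others with first intron peaks were l(3)neo38 (1165), hng3 (1095), dbo (985), CG6287 (837) and rudhira (798). The others with 5' UTR peaks were the adenylate kinase gene Adk3 (1034), CG12316 (970), the ecdysone-induced nuclear receptor gene Eip75B (917), CG6785 (908), yip2 (903), CG4497 (900), Ufsp1 (896), the organic cation transporter gene Orct (888), the cation channel gene Trpm (874), CG18622 (868), CG17982 (838) and the forkhead gene CHES-1-like (815). Of the 25, 16 summits were in 5' UTRs and 9 in first introns, and 19 of the genes had more than 1 TSS. In all 25 the summit was downstream of the TSS in both replicates.

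One of these peaks, at l(3)neo38, was a composite. The pooled summit was at 368 bp, and the replicate entries with the nearest summits were weak, with signals of 82.6 in replicate 2 and 30.1 in replicate 3. Each replicate also had a strong entry over the same region, with a signal of 456 and its summit at 497 bp in replicate 2, and a signal of 945 and its summit at 570 bp in replicate 3. The other 24 had replicate 3 to replicate 2 ratios between −0.51 and 0.54 on the log2 scale once the shift common to all peaks, 1.15, was removed.

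Replicates placed most summits on the same side of the TSS. Of the 824 peaks, 823 overlapped an entry of replicate 2, 822 an entry of replicate 3 and 821 an entry of both. The summit was at or downstream of the TSS in both lists for 722 of 821 (87.9%, 85.5 to 90.0%), against 92.9% of upstream peaks with both summits upstream. The share changed with distance. It was 108 of 188 (57.4%) for pooled summits at 0 to 49 bp, 162 of 177 (91.5%) at 50 to 99 bp and 452 of 456 (99.1%) at 100 to 500 bp. The median gap between the replicates' summits was 36 bp. At 0 to 49 bp the distance was thus of the size of that gap. At 0 to 49 bp past the TSS lay 188 downstream summits, and at 1 to 50 bp in front of it lay 289 upstream ones. Across the 821 peaks, Spearman's rho between the replicates was 0.851 for distance and 0.539 for signal, over peaks that the authors' filter chose for their agreement.

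**Figure D3:**
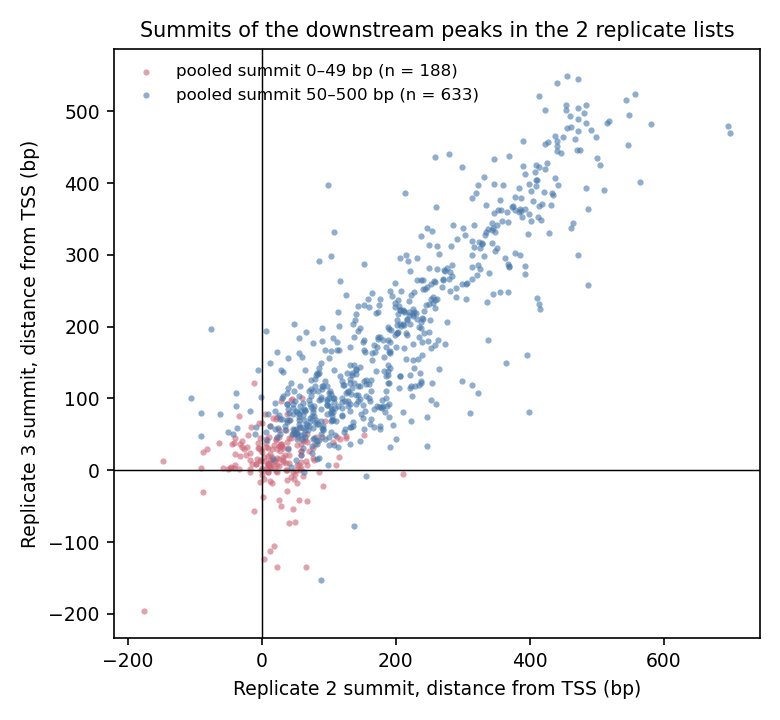
Distance from the TSS to the summit (bp) in replicate 2 and in replicate 3 for the 821 downstream peaks found in both, with lines at the TSS. Points of pooled summits at 0 to 49 bp spread over both sides of the lines, and those farther out lie downstream in both lists with few exceptions.

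Replicate signals differed in scale and, at some peaks, in size. After the common shift was removed, the log2 ratio of replicate 3 to replicate 2 had an SD of 0.65 over downstream peaks. The SD was 0.58 for upstream peaks, 0.52 for divergent promoters and 0.57 over all peaks. The replicates thus differed somewhat more at downstream peaks than at the other promoter peaks. Among downstream peaks, 86 (10.5%) departed from the common ratio by more than 2-fold. Of those 86, 41 lay in regions where several entries overlapped, so that the matched entries may not cover the same summit. The lowest ratios were at Bruce, a gene for a giant inhibitor of apoptosis (177 in the pooled list, 89.7 in replicate 2 and 29.7 in replicate 3), at l(3)neo38 and at drn (246, 185 and 72.6). The highest were at the start shared by chk and CG45092 (196, 13.3 and 206), at Gp150 (210, 13.1 and 175) and at CG31523 (209, 19.0 and 191). None of these but l(3)neo38 was among the 25 strongest.

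Some start sites with a downstream peak also had a peak in front. An IDR summit lay upstream within 500 bp of the same TSS for 108 downstream peaks (13.1%, 11.0 to 15.6%). This share depended on the definition, and was 1.78% when overlapping entries were joined, 8.22% in the 50% of peaks with highest signal, 21.1% with a window of 250 bp and 20.2% with a window of 1000 bp. Where several summits lay in front, the strongest was taken as the partner, a choice that favours the partner in signal. The partner was the stronger in 68 of the 108 cases (63.0%), and the medians were 237 for the downstream peaks and 313 for their partners. Of the 108, 14 were the only entry of their joined region. At puml the partner (653) was itself a downstream peak of another start site of the gene. The 716 downstream peaks without a partner had a median of 226. By distance the partner share was 17.0% at 0 to 49 bp, 14.7% at 50 to 99 bp, 16.9% at 100 to 199 bp, 5.11% at 200 to 299 bp, 4.05% at 300 to 399 bp and 13.8% at 400 to 500 bp, with no steady trend. Overlap of entries was about as common as over all peaks: 263 downstream peaks (31.9%) shared a joined region with another entry. The share was 30.1% for upstream peaks, 36.6% for divergent promoters and 30.7% over all peaks. The 824 downstream peaks fell in 761 regions. At the level of genes, 184 genes had both kinds of peak at some TSS, which was 25.1% of the genes with a downstream peak and 13.4% of those with an upstream peak.

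Some downstream peaks had further TSSs or other genes nearby. For 618 (75.0%) the window held a single TSS, and for 805 a single gene. Another TSS of the same strand lay farther downstream within 500 bp of the summit for 126 (15.3%), at a median of 236 bp past the summit. A non-coding TSS of the opposite strand, which the rule did not use, lay in the window of 39 (4.73%), against 6.35% of upstream peaks. The summit was also inside a gene of the opposite strand for 32 and inside a different gene of the same strand for 14.

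Most genes, 634 of 734, had 1 downstream peak, 95 had 2 and 5 had 3. Among the 5 were Pcyt1, which encodes the rate-limiting enzyme of phosphatidylcholine synthesis, with first intron peaks at 3 start sites and signals of 206, 240 and 478. smash had peaks of 218, 468 and 228 and chk of 196, 197 and 280, all in 5' UTRs. The smash peaks of 468 and 228 shared a start site, as did the chk peaks of 196 and 280. Those 2 chk peaks overlapped and were matched to the same replicate 3 entry. Genes with a downstream peak were long and often had several starts. Their median length was 6003 bp, against 4797 bp for genes with an upstream peak, 2571 bp for genes at divergent promoters and 2166 bp for all protein-coding genes. More than 1 TSS was annotated in 61.0% of them, against 56.1%, 41.1% and 26.5%. A gene with more starts has more places for a peak under the rule, and its part in the counts by gene list was not tested.

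Peaks within 500 bp of a TSS, of any class, were found at 4178 protein-coding genes (30.0%), and 17.6% of these had a downstream peak. In all, 19 lists of genes by function were set against these shares as descriptions without a test. In 15 of them the share of genes with a downstream peak was above the 5.26% of all genes, and in each of those the share with any promoter peak was above 30.0% too.

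Genes of insulin, TOR and energy sensing, which couple growth to nutrients, had the highest share. Of 32, 13 (40.6%) had a downstream peak, and these made up 65.0% of the 20 with any promoter peak, against 17.6% over all genes. The strongest was at Lk6, a kinase gene acting on translation initiation, at 70 bp with signals of 562 in the pooled list, 139 in replicate 2 and 410 in replicate 3. Thor, the 4E-BP translational repressor, had one at 40 bp (408, 100.9 and 313). Pi3K92E, the catalytic subunit of class I PI3-kinase, had one at 484 bp (393, 138 and 256), and the kinase gene Sik3 had one in the first intron (349, 94.2 and 253). All 4 had a peak in both replicates, though none was among the 25 strongest. In replicate 3 the summit of Thor was at −29 bp, in front of the TSS. That of Pi3K92E was at 509 bp in replicate 3, past the 500 bp window. A further TSS of Thor lay 48 bp past its pooled summit.

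Other lists of signalling genes were also above the 5.26% of all genes. Of 30 genes of the JNK, JAK-STAT, Toll and Imd pathways, which serve stress and immunity, 10 (33.3%) had a downstream peak, led by the Toll adaptor gene Myd88 (410, 112 and 290) and including the Fos gene kay (239) and the NF-kappaB gene dl (236). Among protein kinases the count was 15 of 66 (22.7%), with Tlk (460, 160 and 303) and Pka-R2 (445, 142 and 297) after Lk6. Among genes of the Notch, Wnt, Hedgehog, BMP and EGFR pathways it was 7 of 45 (15.6%), led by aop, the ETS repressor Yan (471, 108 and 353). Circadian clock genes had it in 3 of 9, Pdp1 (328, 107 and 200), cyc (276, 110 and 158) and tim (241, 173 and 76). The tim signal was thus lower in replicate 3 than in replicate 2. At Pdp1 a stronger peak (1004) lay in front of the same TSS. The strongest overlapping entries there had summits at −423 bp in replicate 2 and −395 bp in replicate 3. Nuclear receptor and ecdysone response genes had a downstream peak in 5 of 27 (18.5%), led by Eip75B.

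Lists of genes of translation and energy metabolism were also above the 5.26% of all genes. Cytosolic ribosomal protein genes had a promoter peak in 79 of 92, and 17 (18.5%) had a downstream one, led by RpL30 at 29 bp (730, 218 and 534), RpL27 at 16 bp (617, 183 and 434) and RpL37A at 9 bp (593, 194 and 397). Translation factor genes had a downstream peak in 7 of 54 (13.0%), led by eEF2 at 7 bp (650, 199 and 447). These 4 pooled summits were all within 50 bp of the TSS. RpL30 and eEF2 had theirs downstream in both replicates, whereas that of RpL27 was at −18 bp in replicate 3 and that of RpL37A at −8 bp in replicate 2. At RpL30, RpL37A and eEF2 a further TSS of the same gene lay 40, 34 and 41 bp past the pooled summit. Glycolytic enzyme genes had a downstream peak in 4 of 13 (30.8%). These were led by the enolase gene Eno at 349 bp (546), Pgk at 353 bp (391) and the aldolase gene Ald1 at 313 bp (314). For Eno and Pgk each replicate also had a stronger overlapping entry past the window. In replicates 2 and 3 its summit was at 536 and 538 bp for Eno and at 554 and 580 bp for Pgk. Oxidative phosphorylation genes had a downstream peak in 7 of 86 (8.14%), led by ATPsynC (329). Among the genes of each list with any promoter peak, 21.5% of the ribosomal protein genes, 26.9% of the translation factor genes, 36.4% of the glycolytic genes and 21.9% of the oxidative phosphorylation genes had a downstream one, beside 17.6% over all genes.

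Of the genes that act on chromatin and RNA, 12 of 49 for RNA-binding and splicing proteins (24.5%) had a downstream peak, led by B52 (584, 144 and 443) and the poly(A)-binding protein gene pAbp (503, 123 and 370). Chromatin regulators had it in 7 of 56 (12.5%), with Trl, the gene of GAGA factor (597, 160 and 445), and nej, the CBP acetyltransferase gene (412, 153 and 266), after ph-p. Insulator and promoter factor genes had it in 3 of 19, Trl, pita (311) and Clamp (220). Heat shock and chaperone genes had it in 7 of 36 (19.4%), led by DnaJ-1 (356), and actin cytoskeleton and adhesion genes in 9 of 46 (19.6%), led by sqh and the spectraplakin gene shot (422). Among the genes with any promoter peak, the share was 35.3% for RNA-binding and splicing proteins and 20.6% for chromatin regulators. It was 23.1% for insulator and promoter factors, 33.3% for heat shock and chaperones and 34.6% for actin and adhesion. Over all genes it was 17.6%.

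The other 4 lists were under the share of all genes. Mitochondrial ribosomal protein genes had a promoter peak in 46 of 73 but a downstream one in 1 (1.37%), mRpL36 (167, 37.1 and 124). Genes of Rab, Sec, Vps and syntaxin trafficking had a promoter peak in 45 of 87 and a downstream one in 2 (2.30%), Rab32 (239) and Syx1A (218). Proteasome subunit genes had them in 15 and 1 of 48, the downstream one at Rpn10 (169). Homeobox genes had promoter peaks in 8 of 63 and a downstream peak in 1, which was CG11617 itself. That peak lay in its first intron, 221 bp past the TSS (chr2L:206470-206977), with signals of 243 in the pooled list, 46.5 in replicate 2 and 194 in replicate 3. The flies also carry a CG11617 transgene and no control sample was analysed. The part of transgene copies in this signal was not tested.

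**Figure D4:**
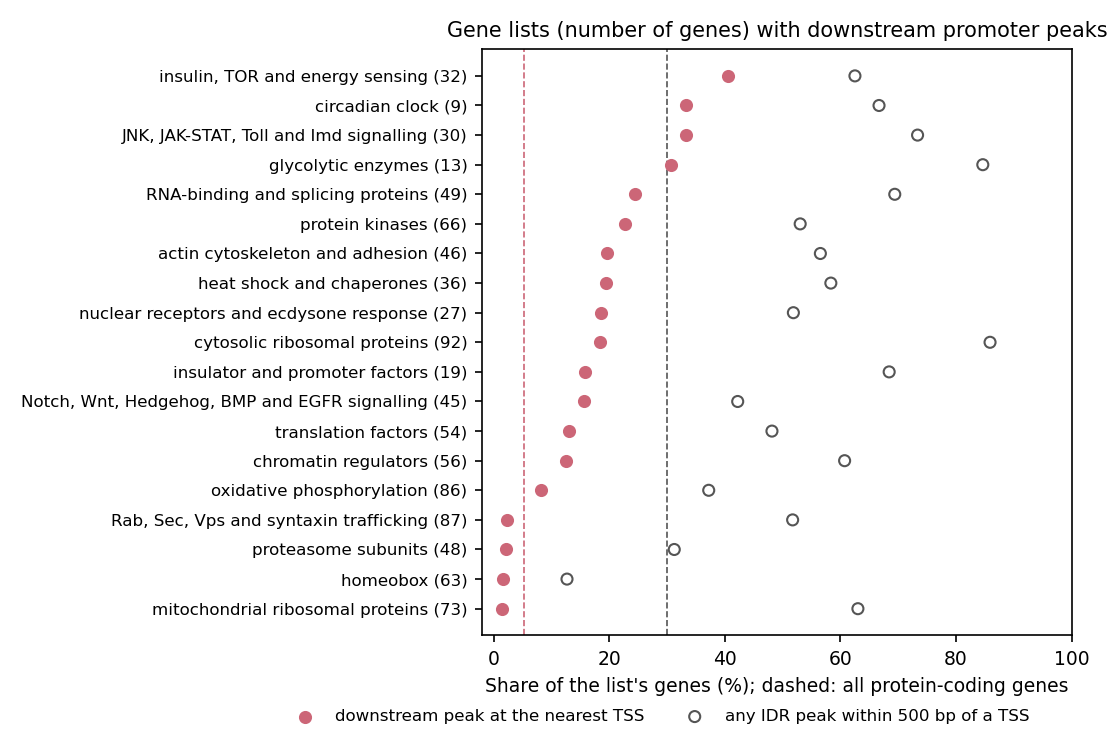
Share of the genes of each list (number of genes in brackets) with a downstream peak at the nearest TSS (filled) and with any IDR peak within 500 bp of a TSS (open), with dashed lines at 5.26% and 30.0% for all protein-coding genes. Insulin, TOR and energy sensing genes have the highest filled point at 40.6%, and mitochondrial ribosomal protein genes the lowest at 1.37%.

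The DNA under downstream summits was richer in G and C than under other promoter peaks. The median GC content of the stretch of 50 bp to each side of the summit was 43.6%, against 35.6% at upstream peaks, 32.7% at divergent promoters and 36.6% over all peaks. At 11970 one-strand TSSs without a peak, windows of the same length at the same median distance downstream had 44.6%. Among downstream peaks the median was 44.6% in 5' UTRs and 40.6% in first introns. GC content was lower at the strongest peaks. Among peaks with a signal above 406, the upper quartile of all peaks, it was 38.6% for 105 downstream peaks, 30.7% for upstream peaks and 27.7% for divergent promoters, and below the lower quartile, 200, it was 44.6%, 40.1% and 38.6%. For downstream peaks the median was 44.6% in each of the 3 bins below the highest, so it was lower in the highest bin alone, while the upstream and divergent medians were lower from each bin to the next. The order of the classes was the same in all 4 bins of signal between the quartiles. The 25 strongest downstream peaks had a median of 30.7% (20.8 to 53.5%), and 22 of them were under 40%.

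**Figure D5:**
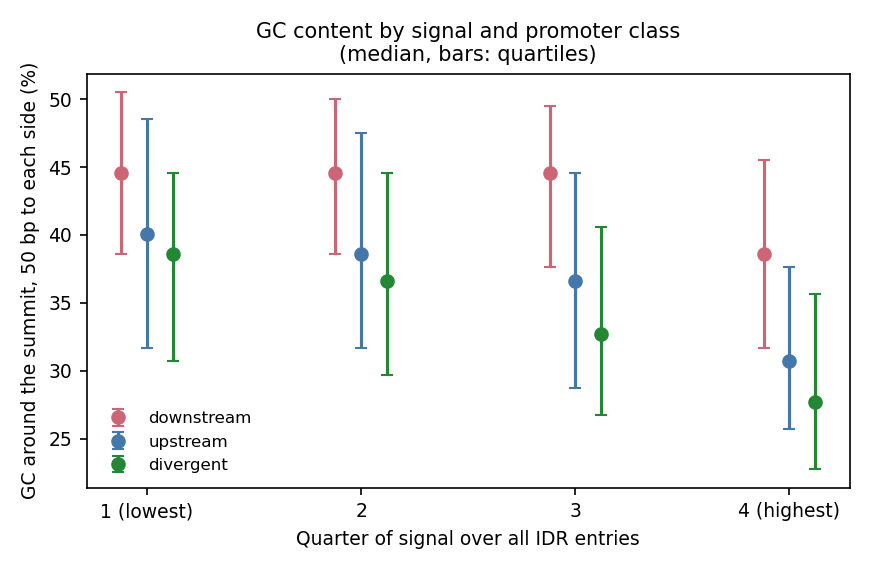
GC content (%) within 50 bp of the summit in 4 bins of signal cut at the quartiles of all IDR peaks, for downstream, upstream and divergent promoter peaks, as median with bars to the quartiles. Downstream peaks have the highest median in every bin, 38.6% in the highest.

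Motifs were searched on both strands in the same windows. The repeat CACACACA, shown above at Cat, Nedd4 and qtc, was in 50 windows of downstream peaks (6.07%), against 2.39% of upstream peaks, 1.40% of divergent promoters and 2.45% of windows at unbound start sites. It was in 9.81% of the first intron summits and 5.13% of those in 5' UTRs. It was in 2 of the 105 downstream peaks with a signal above 406 (1.90%), of which Cat is one, and in 5.45%, 7.98% and 6.53% of those in the 3 lower bins of signal, lowest first. CACGTG was in 17 windows (2.06%), against 1.26%, 0.982% and 1.13%. ACANNTGT was in 45 (5.46%), against 4.46%, 4.91% and 3.07%, and the related ACATGT in 16 (1.94%), against 2.39%, 1.96% and 1.71%. TGACAG, a core of other TALE proteins, was in 25 (3.03%), against 3.08%, 4.28% and 2.60%. The run AAAAAAA was in 114 (13.8%), against 12.5%, 10.9% and 8.67%. GAGAGAG, bound by the Trl protein, was in 20 (2.43%), which was under the 3.96% of upstream peaks and over the 0.421% of divergent promoters. CAGGTAG, the motif of the early activator Zelda, was in 5 (0.607%), against 0.585% at unbound start sites.

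Several AT-rich motifs, unlike the run AAAAAAA, were less frequent at downstream summits than at other promoter peaks. The homeodomain core TAATTA was in 6.07%, against 8.11% of upstream peaks, 13.0% of divergent promoters and 4.65% of unbound windows. TAACA was in 15.5%, against 24.8%, 31.3% and 15.8%, and TATAAA in 10.7%, against 19.4%, 23.8% and 9.11%. In first introns, where GC content was lower, TAATTA was in 9.81% of summits. The promoter motifs were rare at the summits too, with TATCGATA in 0.728%, against 3.39% and 5.19% at the other classes and 0.209% of unbound windows, and GGTCACACT in 1.33%, against 1.38%, 2.59% and 0.159%.

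In front of the start site the promoter motifs had another distribution. It was read at start sites with a downstream peak, with an upstream peak and without a peak, and not at divergent promoters. In the 150 bp upstream of the 757 start sites with a downstream peak, TATCGATA was present at 79 (10.4%), against 5.22% of 1437 start sites with an upstream peak and 3.20% of the 11970 unbound ones. GGTCACACT was present at 41 (5.42%), against 2.51% and 0.944%. These are the sites shown above for Cat, dbo, RpL27, B52, Mer and Rnp4F. The median GC content of the stretch was 42.7% at downstream peaks, 42.7% at upstream peaks and 41.3% at unbound start sites. TATCGATA was centred at a median of −45 bp from the TSS and GGTCACACT at −38 bp. The downstream summits were a median of 174 and 140 bp past them, a separation that the choice of summits past the TSS and of a stretch in front of it fixes in direction. TATAAA was present in 19.0% of the stretches, against 20.7% and 27.0%. CGATA, which is part of TATCGATA, was present in 38.6%, against 31.3% and 24.9%.

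Both motifs in front were found with summits in every distance bin. TATCGATA was upstream of 14 of 188 downstream peaks at 0 to 49 bp (7.45%), 25 of 177 at 50 to 99 bp (14.1%), 21 of 183 at 100 to 199 bp (11.5%), 18 of 137 at 200 to 299 bp (13.1%) and 12 of 139 at 300 to 500 bp (8.63%). The share was 10.6% for summits in 5' UTRs and 11.2% for those in first introns. GGTCACACT was upstream of 16 peaks at 0 to 49 bp (8.51%), 7 at 50 to 99 bp (3.95%), 10 at 100 to 199 bp (5.46%), 7 at 200 to 299 bp (5.11%) and 5 at 300 to 500 bp (3.6%). It was in front of 6.19% of the summits in 5' UTRs and 3.74% of those in first introns. Peaks with TATCGATA in front had a median signal of 223, those with GGTCACACT 223 and those with neither 229. An Initiator, searched as TCAGTC or TCAGTT within 10 bp of the TSS, was found at 10.3% of start sites with a downstream peak, 11.9% with an upstream peak, 3.13% at divergent promoters and 12.5% of unbound ones. A TATAAA between −45 and −15 bp was found at 4.23%, against 3.41%, 1.97% and 10.1%.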

How the data were processed

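Anti-GFP ChIP-seq peaks were analysed for 2 biological replicates of CG11617-GFP adults, without a control sample. The authors deposited narrowPeak lists on dm6 for each replicate and for both pooled, of 30000 entries each, and a set of 5777 entries after a filter on the irreproducible discovery rate (IDR), which compares peak ranks between replicates. Their signal value is a score of the authors, was deposited per entry and is not scaled between lists. No aligner or peak caller is named in the sources used here, read depth is unknown, and the dm3 lists were not used.

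Summits were set against protein-coding TSSs of Ensembl release 115 (BDGP 6.54), whose chromosome arms are those of dm6, and sequence was read from the Release 6 genome. Replicate values come from the overlapping entry (at least 1 bp) with the nearest summit. Position was read from the transcript that starts at the nearest TSS. Motifs were searched in windows of 50 bp to each side of the summit. Ohler core promoter motifs 6 and 7 were searched too, and were in 0.121% and 2.18% of downstream windows, 0.377% and 3.65% of upstream ones, and 0.0752% and 0.844% of unbound ones. With 1 group of 2 samples no test was run. Shares carry 95% Wilson intervals. The functions were checked on simulated data, with 600 of 600 summits, 600 of 600 positions and 400 of 400 motif windows given the right answer.

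Named genes are the 25 strongest regions, the 3 strongest of each position, up to 4 of each gene list, the 3 at each threshold, the 3 extremes of replicate ratio, the genes with most entries and up to 4 of the strongest peaks with each motif that was more frequent at downstream peaks; sequences are printed for some of these motifs. Sequences in front of start sites and those with TAATTA were chosen after their values were seen. The members and all lists and motifs were chosen with earlier results of these data known. Python 3.11.15, numpy 2.4.6, pandas 2.3.3, scipy 1.17.1 and matplotlib 3.10.9 were used. The alternatives changed the window, the TSSs, the joining of entries, the peak set and the replicates.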

Additional observations from a re-analysis of the deposited data

How the results depend on the processing

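The number, distance, positions, signal ratio, upstream partners, GC content and replicate sides of the downstream peaks were recomputed with 1 choice changed. The shares of motifs and gene lists, gene lengths and the annotation beside the summits were not. With the 50% of peaks with highest signal, 304 were downstream, in place of 824, with 29.9% in first introns, 8.22% with an upstream partner, a GC content of 42.6% and a log2 ratio of median signal to upstream peaks of −0.37. With windows of 250 and 1000 bp the median distance was 84 and 191 bp, the first intron share 14.2% and 38.4%, the 5' UTR share 79.4% and 54.4% and the share with an upstream partner 21.1% and 20.2%, and at 1000 bp GC content was 41.6%. With the first TSS of each gene only, the distance was 149 bp and the 5' UTR share 65.1%. With overlapping entries joined, 1.78% had an upstream partner, since joining leaves 1 entry per region. The share downstream in both replicates was 81.4% when the overlapping entry of highest signal was matched and 97.0% for summits at least 50 bp past the TSS. From 1 replicate's 5777 strongest entries, the number was 841 to 866, the distance 103 to 141 bp, the first intron share 24.3 to 27.4% and the log2 ratio −0.32 to −0.22. In all, 19 recomputed values moved and 32 did not, and the log2 ratio was negative in each. No paired analysis was possible because there is 1 group. The pooled list also holds weaker entries, with signals down to 29.9 against a lowest value of 163 in the IDR set. These weaker entries were not described here. Without counts or a control sample, whether they are binding was not tested.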
